A study of Saccharomyces cerevisiae with 6 samples.

Results

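The 10 genes described here encode the 8 enzymes of haem biosynthesis (*HEM1*, *HEM2*, *HEM3*, *HEM4*, *HEM12*, *HEM13*, *HEM14* and *HEM15*), the haem oxygenase that breaks haem down (*HMX1*) and a haem-responsive transcription factor (*HAP1*). They were picked by gene symbol, with no measured value in the rule. All 10 were found among the 7127 features of the count table, and all 10 passed the filter on low counts. Poly(A) RNA was sequenced from 3 cultures of young and 3 of aged *Saccharomyces cerevisiae*. All 6 were prototrophic wild-type cells of strain CGY4.51, with the genotype given as MAT@, in synthetic complete medium with glucose at pH 4.5. Young cells came from exponentially growing cultures. Aged cells had spent 24 h in a ministat aging device, a small continuous culture that retains bead-labelled mother cells while fresh medium washes their daughters out. Age and the culture system cannot be told apart in this comparison. The share of daughters left in the aged RNA samples is not given in the sources used here, and in bulk RNA fewer cells of one kind cannot be told apart from less RNA per cell. A batch number in the labels joins 1 young to 1 aged library, for 3 such pairs.

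Haem is an iron porphyrin that serves as the cofactor of cytochromes, catalases and sterol-making enzymes, and in yeast it also reports oxygen to the transcription machinery. Its synthesis starts in the mitochondrial matrix, where Hem1 joins glycine to succinyl-CoA to give 5-aminolevulinate. It moves to the cytosol for Hem2 (porphobilinogen synthase), Hem3 (hydroxymethylbilane synthase), Hem4 (uroporphyrinogen III synthase), Hem12 (uroporphyrinogen decarboxylase) and Hem13 (coproporphyrinogen III oxidase, which needs oxygen). It returns to mitochondria for Hem14 (protoporphyrinogen oxidase) and Hem15 (ferrochelatase, which inserts iron). Hap1 activates respiratory genes when haem is present, and among its targets is *ROX1*, the repressor of genes used at low oxygen. Aft1 turns on iron uptake genes, and *HMX1* among them, when iron is short.

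Stretches upstream of 3 of the genes are shown because they hold the letters of these regulators. They were read from the R64 genome, the build named in the submitters' processing notes, within the 500 bases before each start codon, and each runs 5′ to 3′ on the coding strand. Capitals mark the Hap1 site and the Aft1 core (TGCACCC, here as its reverse complement) in *HMX1*, 2 Rox1 cores (ATTGTT) and an Aft1 core in *HEM1*, and the Rox1 cores in *HEM13*, 1 in each stretch.
HMX1, chrXII:553909-554140 (- strand): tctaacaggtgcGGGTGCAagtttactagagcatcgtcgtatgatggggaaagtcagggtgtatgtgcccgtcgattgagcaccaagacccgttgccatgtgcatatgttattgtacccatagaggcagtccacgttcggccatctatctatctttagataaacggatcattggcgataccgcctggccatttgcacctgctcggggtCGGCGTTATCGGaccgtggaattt
HEM1, chrIV:927094-927271 (+ strand): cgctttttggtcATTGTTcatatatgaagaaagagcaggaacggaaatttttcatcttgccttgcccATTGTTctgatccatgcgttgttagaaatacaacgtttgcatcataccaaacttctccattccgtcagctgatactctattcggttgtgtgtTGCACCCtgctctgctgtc
HEM13 far core, chrIV:546159-546188 (+ strand): attttaatttcaATTGTTtagaaagtgcct
HEM13 near core, chrIV:546448-546477 (+ strand): cttgctttgcccATTGTTctcgtttcgaaa

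A Hap1 site, a pair of CGG triplets with a fixed spacing and TA between them, was found in 1 of the 10 upstream windows, that of *HMX1*, 255 to 244 bases before the start codon. It occurred in 0.349% of the 6019 windows of the same length before protein-coding genes. The Aft1 core was in the windows of *HEM1*, 199 to 193 bases before the start codon, and *HMX1*, 451 to 445 bases before it, and in 2.33% of all windows. The Rox1 core was in 7 of the 10 windows and 48.9% of all windows, the CCAAT box, bound by the Hap2/3/4/5 complex, in 8 and 62.4%, and the stress element core AGGGG in 3 and 34.0%. Both strands were searched for these 5 motifs, and no match in a haem gene overlapped another. *HEM12* held none of the 5. A match describes letters only and is not evidence of binding.

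Transcripts of 7 of the 10 haem genes were more abundant in aged cells, and none was less abundant (edgeR quasi-likelihood test, Benjamini-Hochberg adjusted p under 0.05). All 10 estimates were above 0 in this fit and with limma-voom, so no p threshold could give a lower gene there. With DESeq2 *HEM4* was at −0.0048, and the count of lower genes was also 0. The rises were modest, from 1.20-fold for *HEM1* to 1.40-fold for *HEM12*. They covered the first enzyme, the last 4 enzymes, the haem oxygenase and *HAP1*, whereas *HEM2*, *HEM3* and *HEM4*, which act one after the other, did not pass the test. That grouping along the pathway was noticed after the values were seen and was not tested. Of all 6755 features tested, 63.5% passed the threshold, 32.7% as higher and 30.8% as lower in aged cells, so a call by itself was common in these data. The median log2 fold change was 0.30 over the 10 genes and 0.02 over all features, and 29.99% of features lay above the median of the haem genes. In 8 of the 10 genes every aged library lay above every young one, which held for 36.3% of all features. The scaling between groups bears on these counts. With total counts alone, without the trimmed mean of M-values (TMM), the median of all features moved to 0.54 and the split of calls to 4639 higher and 562 lower, and all 10 haem genes were called higher. Relative to that median, the median of the haem genes was 0.27. With an offset for GC content it was 0.15 relative to the median of all features, and with an offset for gene length 0.18.

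*HEM1*, whose product makes the committed precursor (chromosome IV, 927452 to 929098), stood at 45.7, 46.2 and 40.5 CPM (counts scaled to a common library size and TMM factor) in young libraries 1 to 3 and at 54.2, 52.6 and 52.7 CPM in the aged ones. All aged libraries lay above all young ones. The log2 fold change was 0.27 ± 0.07 (SE; 95% interval 0.11 to 0.43; edgeR adjusted p = 0.00839, n = 3 per group). *HEM1* has the highest GC content of the 10 genes, 47.0%, and its call was lost with an offset for GC content (log2 fold change 0.09, edgeR adjusted p = 0.316; range over all alternatives 2.05e-05 to 0.316).

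The 3 cytosolic enzymes that follow gave no call. *HEM2* (chromosome VII, 419527 to 420555) had 73.1, 72.0 and 69.2 CPM in young and 76.4, 73.5 and 76.1 CPM in aged libraries. The groups did not overlap, but the lowest aged and highest young values differed little, and the log2 fold change was 0.08 ± 0.06 (interval −0.06 to 0.22; edgeR adjusted p = 0.311). *HEM3* (chromosome IV, 92762 to 93745) had 101, 80.2 and 93.1 CPM in young and 101, 99.1 and 90.9 CPM in aged libraries. The spread among young libraries, an SD of 10.6 CPM, exceeded the difference of the group means, and the log2 fold change was 0.09 ± 0.09 (−0.12 to 0.29; edgeR adjusted p = 0.433). *HEM4* (chromosome XV, 842817 to 843644) had 24.1, 25.6 and 22.6 CPM in young and 23.8, 26.0 and 23.3 CPM in aged libraries. Its groups overlapped, at a log2 fold change of 0.02 ± 0.08 (−0.17 to 0.20; edgeR adjusted p = 0.883). The upper bounds leave room for rises of about the size seen in *HEM1* in *HEM3*, and for smaller ones in the other two.

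*HEM12*, the enzyme that trims the side chains of uroporphyrinogen (chromosome IV, 551860 to 552948), rose most. It went from 48.3, 41.6 and 41.1 CPM to 61.1, 62.6 and 60.3 CPM, with the lowest aged library well clear of the highest young one. Its log2 fold change was 0.49 ± 0.08 (0.32 to 0.66; edgeR adjusted p = 0.000364). *HEM13*, the oxygen-consuming oxidase and a known target of Rox1 repression, lies on the same chromosome (IV, 546642 to 547628), with *RPC11* and *BAP3* between it and *HEM12*. It stood at 33.1, 32.3 and 30.0 CPM in young and 39.7, 40.7 and 43.2 CPM in aged libraries. The groups were apart, at a log2 fold change of 0.37 ± 0.07 (0.21 to 0.53; edgeR adjusted p = 0.00126).

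*HEM14*, the inner-membrane protoporphyrinogen oxidase (chromosome V, 182600 to 184219), had 33.1, 28.2 and 32.5 CPM in young and 36.0, 37.2 and 40.7 CPM in aged libraries. The groups were separate, with a log2 fold change of 0.28 ± 0.09 (0.09 to 0.47; edgeR adjusted p = 0.0144). Without aged library 3 the call was lost (edgeR adjusted p = 0.0708; range over all alternatives 9.56e-05 to 0.0708). The opposite strand of *HEM14* carries part of *BUD25*, over 489 bp or 30.2% of the gene, and since the strand setting of the counting is not given in the sources used here, reads from the shared stretch may have been split between them. *BUD25* itself was at 10.0 ± 1.00 CPM in young cells and at 10.3 ± 0.60 CPM after aging (SD, n = 3; edgeR adjusted p = 0.732). *HEM15*, the ferrochelatase (chromosome XV, 662401 to 663582), went from 72.2, 67.8 and 74.3 CPM to 88.7, 93.2 and 89.2 CPM. No aged library came near a young one, and the log2 fold change was 0.34 ± 0.07 (0.19 to 0.49; edgeR adjusted p = 0.00138).

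*HMX1*, which opens the haem ring and frees its iron (chromosome XII, 552724 to 553677), was the least abundant of the 10, with 7.998, 7.748 and 8.714 CPM in young and 9.96, 10.8 and 10.5 CPM in aged libraries. The groups did not overlap, at a log2 fold change of 0.35 ± 0.10 (0.12 to 0.58; edgeR adjusted p = 0.0129). The call for *HMX1* was lost with the GC offset (edgeR adjusted p = 0.0906) and without aged library 2 (edgeR adjusted p = 0.0525), in a range of 6.08e-05 to 0.106 over all alternatives.

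*HAP1* (chromosome XII, 646415 to 650923) had 95.5, 81.7 and 90.0 CPM in young and 114, 102 and 116 CPM in aged libraries. All aged libraries were higher, at a log2 fold change of 0.31 ± 0.08 (0.13 to 0.49; edgeR adjusted p = 0.00736). In the reference strain a Ty1 retrotransposon of 5920 bp sits in the 3′ end of the gene, and the last 100 bp of the annotated *HAP1* model lie inside it, after 4409 bp of gene sequence. The junction is shown because it bears on what the *HAP1* count holds. Lower case is sequence before the element, and capitals are the element up to the annotated stop codon.
HAP1, chrXII:650764-650923 (+ strand): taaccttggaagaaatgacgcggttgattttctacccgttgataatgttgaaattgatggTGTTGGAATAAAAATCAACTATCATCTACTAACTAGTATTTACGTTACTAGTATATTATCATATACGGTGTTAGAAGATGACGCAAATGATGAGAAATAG

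Whether strain CGY4.51 carries this insertion is not given in the sources used here. Ty1 copies are nearly identical, so reads lying wholly in the last 100 bp cannot be assigned to *HAP1* alone.

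**Figure D1:**
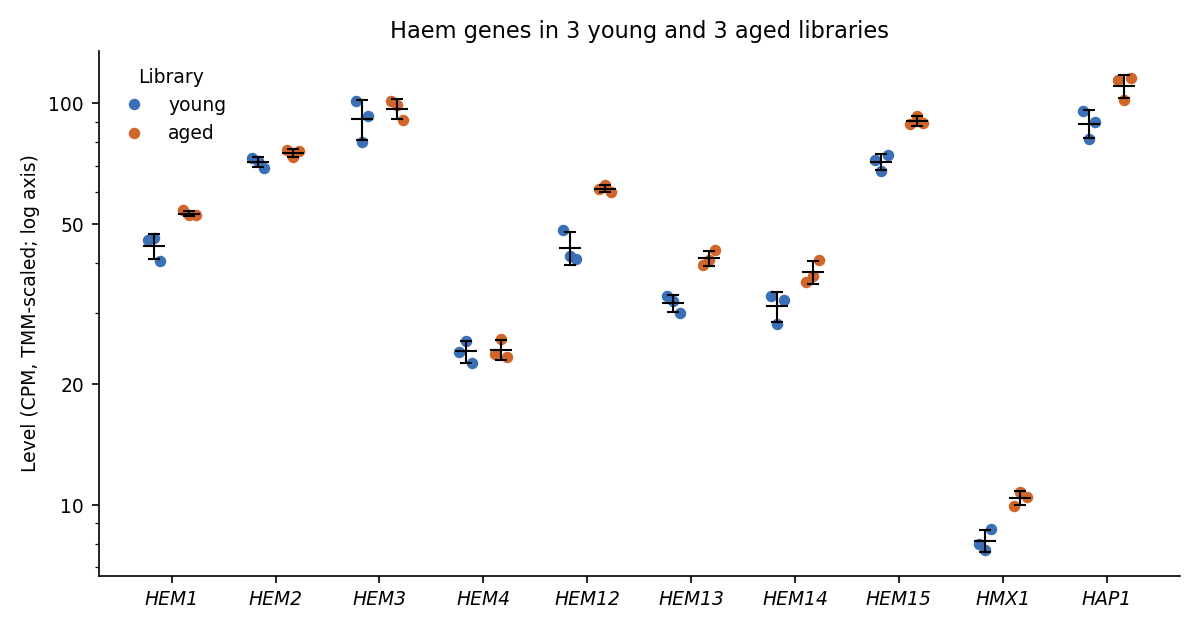
Level of each haem gene (CPM, TMM-scaled, log axis) in 3 young (blue) and 3 aged (orange) libraries, in pathway order, with each group's mean and SD as black bars. The groups are apart in 8 genes and overlap in *HEM3* and *HEM4*; levels run from 7.75 CPM (*HMX1*, young) to 116 CPM (*HAP1*, aged).

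Within the labelled batches the aged library was the higher one in 3 of 3 pairs for 8 genes, the 7 called ones and *HEM2*, which held for 42.4% of all features. *HEM12* had log2 ratios of 0.34, 0.59 and 0.55 in batches 1 to 3, and *HAP1* of 0.26, 0.32 and 0.36. The exceptions were *HEM3*, with a ratio of −0.04 in batch 3, and *HEM4*, with −0.02 in batch 1. *HEM3* was also uneven between batches, with 0.31 in batch 2, where its young library was the lowest of the 3. In the fit with the batch number as a replicate block, *HEM12* had an edgeR adjusted p of 9.58e-06, *HAP1* of 0.000619 and *HEM3* of 0.314, and the same 7 genes were called.

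**Figure D2:**
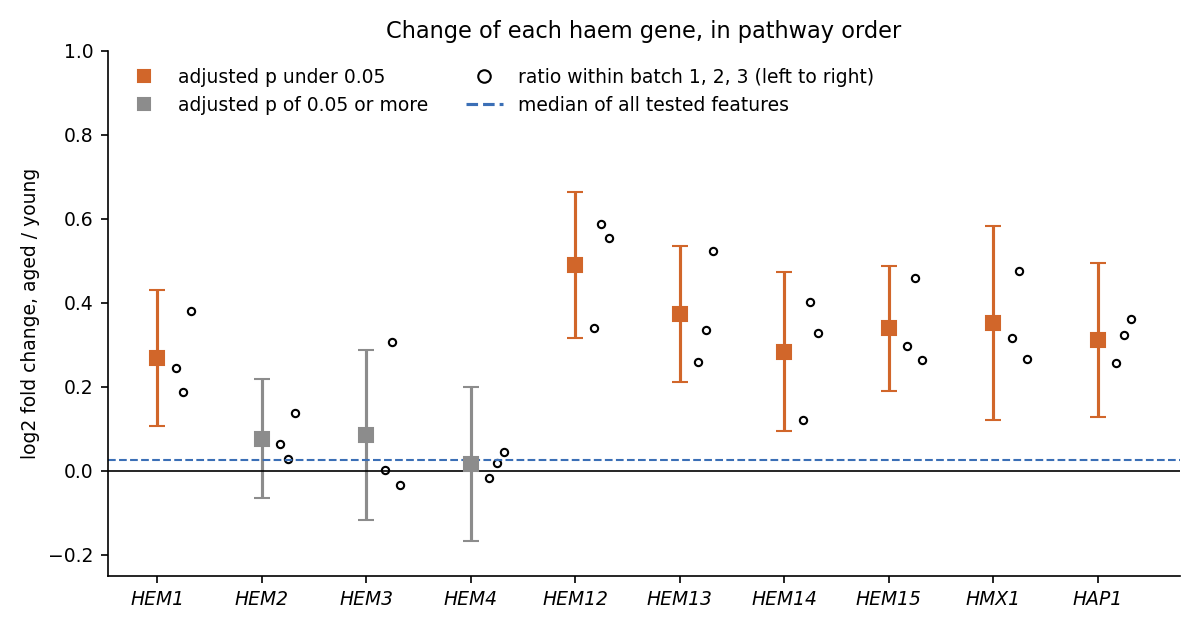
Log2 fold change of aged over young cells for each gene, with its 95% interval (squares and bars; orange, edgeR adjusted p under 0.05), the ratio within each batch (open circles) and the median of all tested features, 0.02 (dashed line). The estimates of *HEM2*, *HEM3* and *HEM4* lie between 0.02 and 0.09, and those of the other 7 genes between 0.27 and 0.49.

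To compare levels between genes, counts were divided by gene length (CPM per kb). In young cells *HEM3* was the most abundant haem transcript at 93.0 ± 10.8 CPM per kb (SD, n = 3), followed by *HEM2* (69.4 ± 1.94), *HEM15* (60.5 ± 2.80) and *HEM12* (40.1 ± 3.70). Next came *HEM13* (32.2 ± 1.63), *HEM4* (29.1 ± 1.81) and *HEM1* (26.8 ± 1.92). Of these, *HEM4* overlapped with both *HEM13* and *HEM1* across libraries. *HAP1* (19.8 ± 1.55) and *HEM14* (19.3 ± 1.65) overlapped as well, and *HMX1* came last at 8.55 ± 0.53 CPM per kb. The transcript of the first enzyme was therefore among the scarcer ones of the pathway in young cells, and that of the third was the richest. In aged cells 2 pairs changed places. *HEM15* (76.4 ± 2.07 CPM per kb) stood above *HEM2* (73.2 ± 1.55), and *HEM1* (32.3 ± 0.54) above *HEM4* (29.4 ± 1.70). Only *HAP1* (24.5 ± 1.63) and *HEM14* (23.4 ± 1.53) overlapped with a neighbour in aged cells. The exchange of *HEM1* and *HEM4* was not kept under the GC and gene-length offsets, where their log2 fold changes were 0.09 and 0.12 (GC) and 0.23 and 0.14 (length), against a gap of 0.12 in young cells.

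The summed level of the 8 enzyme transcripts was 370.4 ± 17.6 CPM per kb in young and 431.5 ± 4.88 CPM per kb in aged cells (SD, n = 3), 1.16-fold higher. The make-up of that pool is a ratio within a library and does not depend on the scaling between libraries. The share of *HEM12* went from 10.8% ± 0.52 to 13.1% ± 0.11, that of *HEM13* from 8.71% ± 0.43 to 9.67% ± 0.52 and that of *HEM15* from 16.3% ± 0.81 to 17.7% ± 0.36, each with all aged libraries above all young ones. The share of *HEM2* went from 18.8% ± 0.78 to 17.0% ± 0.52 and that of *HEM4* from 7.88% ± 0.70 to 6.82% ± 0.33, each with all aged libraries below. The shares of *HEM1*, *HEM3* and *HEM14* overlapped between groups. A two-sided exact permutation test gave p = 0.1 for each of the 5 shares without overlap, the smallest p this test can give with 3 against 3 libraries, and 0.16 after adjustment over the 8 shares, so none passed.

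**Figure D3:**
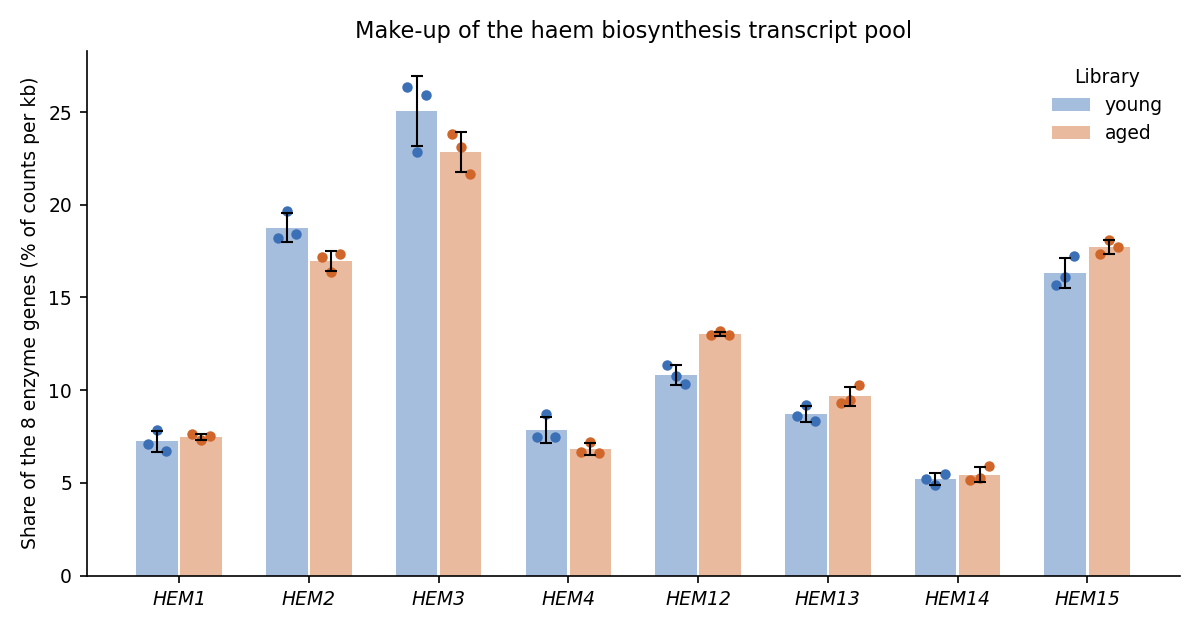
Share of each enzyme gene in the summed counts per kb of the 8 *HEM* genes (%), with bars for the mean, whiskers for the SD and points for the 3 libraries of each group. *HEM3* and *HEM2* hold the largest shares in young cells, and *HEM12* has the widest gap between groups relative to its spread (10.8% against 13.1%).

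Genes around the pathway were taken from 7 lists holding 60 distinct genes, of which 29 rose and 9 fell. The share called, 63.3%, was that of all features (63.5%), and 48.3% were higher against 32.7% of all features. With total counts alone 52 were called higher and 1, *MOT3*, lower, and *YFH1*, *FRE1*, *ROX1* and *CYC8* turned positive, so the falls named next are relative to the TMM scaling. Among 11 genes listed under supply to the pathway, 5 rose, 2 fell and 4 gave no call. The share called was 63.6% against 63.5% of all features, and the median log2 fold change was 0.20 against 0.02. Whether more succinyl-CoA or iron reached the enzymes was not measured in these samples, and the list name does not state it. The largest rises were in *LSC2*, a subunit of succinyl-CoA ligase (42.4 ± 3.92 to 101 ± 1.51 CPM; log2 fold change 1.25, edgeR adjusted p = 1.03e-06), and *KGD2*, a subunit of the 2-oxoglutarate dehydrogenase that makes succinyl-CoA (0.76, edgeR adjusted p = 2.11e-05). The falls were in *MRS4*, a mitochondrial iron carrier (−0.58, edgeR adjusted p = 7.36e-05), and *YFH1*, the yeast frataxin (−0.51, edgeR adjusted p = 0.00201). The call for *YFH1* was lost with an offset for gene length. All 5 genes that rose encode subunits of 2-oxoglutarate dehydrogenase or succinyl-CoA ligase, while both that fell act on mitochondrial iron. That grouping was not tested, and *MRS3*, another iron carrier of the list, gave no call (−0.04, edgeR adjusted p = 0.654).

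Of 6 genes that divert porphyrins or attach haem, none fell and 3 rose (50% against 32.7% of all features). They were *COX15*, which completes haem A (0.93, edgeR adjusted p = 0.00015), *CYC3*, the cytochrome c haem lyase (0.80, edgeR adjusted p = 6.89e-05), and *MET1*, which starts sirohaem synthesis (0.62, edgeR adjusted p = 0.00102). *COX10* (−0.09), *CYT2* (−0.11) and *MET8* (0.09) gave no call, and the share called, 50%, was below the 63.5% of all features. The count of lower genes here and in the Aft1 list was also 0 at an unadjusted p under 0.05, with DESeq2 and with limma-voom, and 1 in each list with the GC offset. Of 15 genes for haem and sirohaem proteins, 5 rose, 4 fell and 6 gave no call (median 0.15). The 60% called and 33.3% higher were close to the 63.5% and 32.7% of all features, so these counts do not set the list apart. *CYC7*, the minor cytochrome c isoform, rose (49.3 ± 10.7 to 109.7 ± 9.79 CPM; log2 fold change 1.15, edgeR adjusted p = 5.22e-05), as did the cytosolic catalase gene *CTT1* (0.99, edgeR adjusted p = 0.000118). *CYC1*, the major cytochrome c isoform, fell (77.6 ± 10.6 to 46.9 ± 5.88 CPM; −0.73, edgeR adjusted p = 0.000352), as did the ferric reductase gene *FRE1* (−0.38, edgeR adjusted p = 0.000717), whose call was lost with the GC offset. The cytochrome c genes thus moved in opposite directions.

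Among 7 genes that Hap1 activates, 4 rose (57.1% against 32.7% of all features) and 2 fell (28.6% against 30.8%), with a median of 0.30. Of the 7, 5 are also in the haem protein list and 1 among the regulators. The call for *HMG1* (0.30, edgeR adjusted p = 0.0212) was lost without young library 3 and without aged library 1 or 3. *CYC7* and *CTT1* had the largest rises, and *CYC1* and *ROX1* (−0.36, edgeR adjusted p = 0.0024) were the 2 that fell. Among 10 regulators of haem, oxygen and iron genes, 1 rose, 3 fell and 6 gave no call (median −0.14). The 30% lower was close to the 30.8% of all features, and 10% were higher against 32.7%. The count of falls thus does not set the list apart. *HAP5*, a subunit of the CCAAT-binding complex, rose (0.33, edgeR adjusted p = 0.0193), a call lost with the GC offset and without aged library 1 or 2. *MOT3*, a repressor of hypoxic genes (104 ± 17.5 to 55.5 ± 0.81 CPM; −0.91, edgeR adjusted p = 5.23e-05), and *CYC8*, a corepressor (−0.44, edgeR adjusted p = 0.00139), fell.

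All 5 genes of a short list of known targets of Rox1 repression rose (median 0.74), where 32.7% of all features did. The list is not a full set of such targets and leaves out *HEM13*. It was chosen with earlier results of these data known, so the count describes these 5 genes only. *ANB1*, the low-oxygen form of a translation factor, went from 10.97 ± 1.62 to 102 ± 4.94 CPM (log2 fold change 3.22, edgeR adjusted p = 6.31e-09). *OLE1*, the fatty acid desaturase gene, went from 200.1 ± 10.1 to 587 ± 62.4 CPM (1.55, edgeR adjusted p = 1.01e-06). *AAC3*, an ADP/ATP carrier gene, rose by 0.74, *HMG2*, a sterol pathway reductase gene, by 0.58, and *COX5B*, a cytochrome oxidase subunit gene, by 0.56 on the log2 scale. Of 12 listed genes of the Aft1 iron regulon, 9 rose (75% against 32.7% of all features), 3 gave no call and none fell (median 0.60). The cell wall proteins *FIT3* (2.37, edgeR adjusted p = 1.61e-07) and *FIT2* (2.10, edgeR adjusted p = 6.32e-08) led the list. The call for *FTR1* (0.21, edgeR adjusted p = 0.0491) was lost with DESeq2 and with the GC and gene-length offsets, among others. *FET3* gave no call (−0.13, edgeR adjusted p = 0.154), with all aged libraries below all young ones. The list is not the full regulon, so the absence of falls holds for these 12 genes only. The iron genes *FRE1* (−0.38) and *MRS4* (−0.58), which fell, stand in other lists and are not counted here. *HEM13*, itself a Rox1 target, and *HMX1*, itself an Aft1 target, had smaller log2 fold changes (0.37 and 0.35) than these medians.

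**Figure D4:**
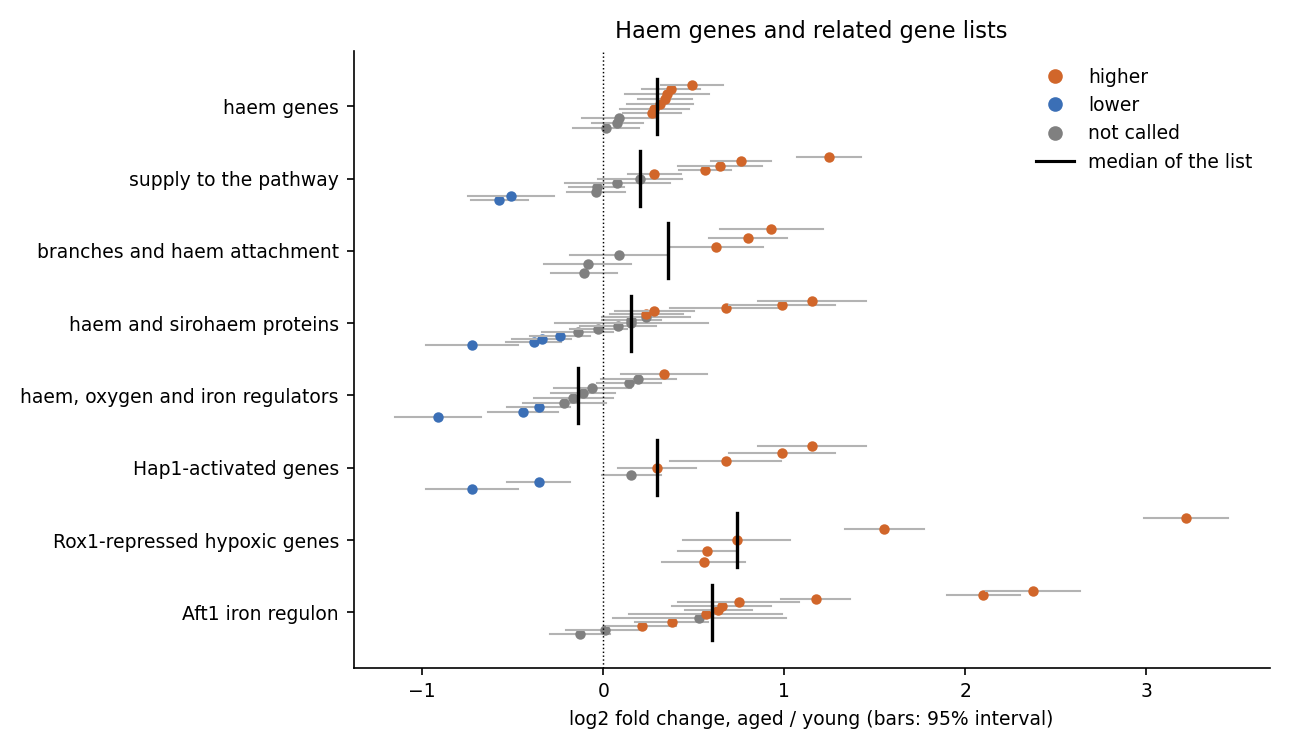
Log2 fold change of aged over young cells for the haem genes and 7 related lists; each point is a gene with its 95% interval, coloured by its call, and the black bar is the median of the list. Medians run from −0.14 (regulators) to 0.74 (Rox1-repressed genes), against 0.30 for the haem genes; some genes stand in more than one list.

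Library totals ranged from 29230292 to 41650202 counts, and the lowest count of any haem gene in any library was 208. The TMM factors were 0.765 to 0.896 in young and 1.145 to 1.237 in aged libraries, so the groups also differed in library composition. The 4 alpha-cell markers summed to between 4386 and 5375 CPM in young and between 3389 and 3718 CPM in aged libraries (1 rose, 2 fell), led by *MF(ALPHA)1*, against 19.2 to 26.6 CPM for 5 a-cell markers (3 rose). The 9 daughter-specific markers, led by *CTS1*, summed to 1082 to 1163 CPM in young and 1272 to 1397 CPM in aged libraries (5 rose, 1 fell). Higher were 25% of the alpha-cell, 60% of the a-cell and 55.6% of the daughter-specific markers, against 32.7% of all features. Lower were 50%, 0% and 11.1% of them, in the same order, against 30.8% of all features. None of the markers was at 0, and their part in the changes of the haem genes was not tested.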

How the data were processed

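RNA of 3 young and 3 aged cultures was sequenced (directional kit, paired ends). The authors deposited 1 table of expected counts per feature, unnormalized estimates made by aligning and counting the reads, and 54.3% to 59.5% of a library's entries were more than 0.001 from a whole number. Per the submitters' processing notes, cutadapt 2.6, STAR 2.7.6a, Subread 1.6.2 and build R64 were used; settings, annotation and strand are not given in the sources used here. Columns were assigned by library name, with 0 left over. Expected counts were rounded. filterByExpr (minimum count 10) kept 6755 features, which were scaled by TMM and tested with edgeR's quasi-likelihood F-test (edgeR 4.0.16, R 4.3.3; group as the only term, two-sided, Benjamini-Hochberg over all features, threshold 0.05). The script was tested on simulated data. The study's own method, DESeq2 with shrinkage, differs in that no fold change was shrunk here. Intervals cover 95% and rest on the spread between the labelled biological replicates. Libraries were made without molecular identifiers.

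Gene lengths, positions and upstream letters came from the R64 genome and RefSeq annotation, to which 6129 of 7127 features (86%) were matched; overlaps with the rest were not examined. The windows and the stretches printed, with 12 bases on each side of the outermost match, were chosen with the table in hand. The members, lists and tests were chosen with earlier results of these data known. All 10 genes are named, with every called gene of a list of up to 6 genes, otherwise the 2 largest rises and 2 largest falls among its called genes. Other genes are named where they limit a count. The labels' batch numbers pair the samples. Deviations from the group means correlated at 0.126, 0.334 and 0.122 between libraries of the same number and at −0.297 to 0.202 between others. The fit has no replicate block because the study's methods state none. Alternatives covered scaling, filter, tool (DESeq2 1.42.0, limma-voom 3.58.1), block, GC content, gene length, threshold and leaving out each library.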

Additional observations from a re-analysis of the deposited data

How the results depend on the processing

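The count of haem genes called higher was 7 under most alternatives, with the replicate block as well, which changed no call among them. It was 5 with the GC offset, with or without the block, 5 at an adjusted p under 0.01, 6 without aged library 2 or 3, and 10 with total counts only. *HEM12*, *HEM13*, *HEM15* and *HAP1* were called under all 17 alternatives to the fit. With total counts only, the median log2 fold change of the haem genes was 0.81, and 52 context genes were higher and 1 lower. With the GC offset 14 context genes were lower, and 14 with the GC offset and replicate block. Among the haem genes, signs turned only for those that gave no call. *HEM4* was at −0.0048 with DESeq2 size factors, −0.0048 with the DESeq2 Wald test and from −0.0331 to 0.0628 when 1 library was left out. *HEM2* was at −0.0178 with the GC offset and −0.0176 with the GC offset and replicate block. The causes were not tested. With 3 libraries per group, differences of the size seen in *HEM2* to *HEM4* were within the error, and no share of the enzyme pool could pass 0.05 by the exact permutation test used.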

Other observations

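The upstream windows of *HEM1* and *HEM13* share the 14-letter run ttgcccATTGTTct around a Rox1 core (capitals), beginning 297 bases before the *HEM1* and 188 bases before the *HEM13* start codon. It was the longest run around such a core shared by any pair of the 10 haem genes, and the next longest had 11 letters (*HEM14* with *HAP1*, and *HEM3* with *HEM14*). Of 6019 windows, 3 hold the run on either strand, and the third is that of *COX20*, the divergent neighbour of *HEM1*, whose window overlaps that of *HEM1* in the 541 bp between them. The comparison was made after the sequences were seen. It describes letters only, and no binding was measured.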
